A study of Rattus norvegicus with 2 samples.

Results

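Prostaglandins are short-lived lipid signals made from arachidonic acid, which phospholipases release from membranes. The cyclooxygenases Ptgs1 (COX-1) and Ptgs2 (COX-2) turn arachidonic acid into prostaglandin H2, and terminal synthases convert this common precursor into prostaglandin D2, prostaglandin E2 and other products. In the brain, Ptgds, the lipocalin-type prostaglandin D synthase, is known from the leptomeninges, the choroid plexus and oligodendrocytes, and prostaglandin D2 is known for promoting sleep through its receptor Ptgdr (DP1). Prostaglandin E2 acts on the receptors EP1 to EP4, and in the preoptic area of the hypothalamus it is known for producing fever through Ptger3 (EP3).

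The genes described here are 10 genes of prostaglandin D and E synthesis and reception, namely Ptgs1, Ptgs2, Ptgds, Ptges, Ptges2, Ptges3, Ptgdr, Ptger1, Ptger3 and Ptger4. They were chosen by a rule that takes every non-control spot whose gene name is one of these symbols, and the list itself was selected on measured values of the comparison given here, so the values are a description. By gene name 9 of the 10 were found, on 20 spots with 11 probes, out of 26320 genes and other targets on the arrays. The tenth, Ptgdr, had no spot under its own name. It was found on 3 probes that the files name Ptgdrl and that carry a RefSeq accession which the rat gene table of the assembly GRCr8 pairs with Ptgdr.

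RNA came from the whole hypothalamus of Wistar Kyoto (WKY) rats aged 9 weeks, a normotensive inbred strain. The female pool combined 100 ng of RNA from each of 5 females, and the male pool the same from each of 5 males. From each pool 150 ng was amplified, labelled with the dye Cy3 and hybridised to 1 Agilent 1-colour array. The labels name no treatment of either group, both were killed under ether inhalation followed by decapitation, and the stage of the oestrous cycle is not given in the sources used here. Pooling leaves no spread between rats, and a single array per pool allows neither a test nor a p-value. All differences are female minus male on the log2 scale and have no replicate check.

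A level is log2 of the processed intensity of a spot minus log2 of the 75th percentile of its array. This percentile was 2943 in females and 3769 in males, so a gene can have a lower intensity but a higher level in the female pool. Of the 42877 non-control spots, 84.2% in females and 84.9% in males carried the flag of Feature Extraction for a signal well above background, and 0 were saturated. A probe was measured where it was well above background on both arrays, which left 20655 genes. The error of a difference is a technical SD, taken from the spread between repeated spots of 1 probe, over the repeated probes nearest in level. At both ends of the range it is a fixed value, 0.25 for the dimmest genes and 0.052 for the brightest, Ptgds among them. There it is the spread of the dimmest or brightest repeated probes, which need not lie at the level of the gene. Whether it holds at that level was not tested, and it may understate the error of the dimmest genes. The technical SD covers scatter within the slide and leaves out labelling, pooling and the rats. Spots that departed from the other spots of their probe crowded into 3 bands of slide rows, where 4.84% of repeated spots did so against 0.476% outside, and a gene read from a spot there is marked (band). As a check of the labels, of 8 hypothalamic peptide genes, among them Avp, Oxt, Pomc and Crh, 8 were well above background in both pools. The Y-linked gene Ube1y1 was not well above background in the female pool. Its male level was 4.11-fold above the lowest level that was well above background on the female array.

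Ptgds was the only listed gene far apart between the pools, 2.45-fold higher in the female pool. Of the 10 genes, 8 were measured, 7 of them found by gene name, while Ptgs2 passed the background flag in males only and Ptger4 in neither pool. Levels of Ptges, Ptges3, Ptgdr, Ptger1 and Ptger3 were also nominally higher in the female pool and those of Ptgs1 and Ptges2 nominally lower, each by less than 1.5-fold; the sign of Ptger3 turned under 3 of 12 alternative ways of processing, that of Ptgs1 and Ptgdr under 1 each. The median difference of the 8 was 0.14, beside 0.00011 over all measured genes, of which 10332 of 20655 were higher in the female pool. Of the 8, 1 gene (Ptgds) was at least 1.5-fold apart, as were 2.39% of all measured genes, and the same 1 was at least 2-fold apart, as were 0.847% of all. Since measured values of this contrast chose the list, nothing is read from that count.

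**Figure D1:**
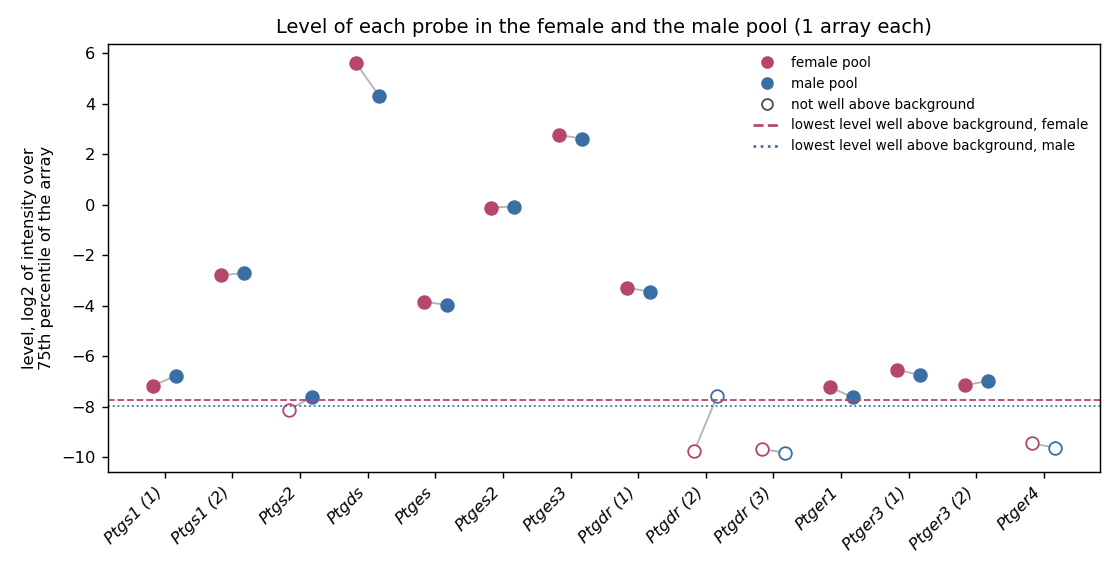
Level of each of the 14 probes in the female pool (red, left) and in the male pool (blue, right), as log2 of intensity over the 75th percentile of the array. Probes of 1 gene are numbered by their place in the transcript, open symbols were not well above background, and horizontal lines give the lowest level that was. Ptgds alone shows a wide gap between filled symbols, 5.59 in females and 4.29 in males. Levels of different probes are not comparable, since probes bind with different strength.

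Each value comes from a probe of 60 bases, and the sequence decides which transcript was read. The probes of 5 genes are shown for that reason, in the sense of the transcript, with coordinates of the rat build rn4 as the files give them. The Ptgds probe lies on chromosome 3 at chr3:3633310-3633779, minus strand. Its 60 bases span 470 bases of genome, so it crosses a splice junction and reads spliced RNA. The Ptgs1 probe at chr3:15350683-15350742, plus strand, is the one nearer the start of the transcript. The Ptgs2 probe at chr13:64432919-64432978, plus strand, ends in the stop codon, given in capitals. The Ptges2 probe lies at chr3:11526212-11526271 and the first Ptger3 probe at chr2:255719678-255719737, both on the plus strand.
Ptgds: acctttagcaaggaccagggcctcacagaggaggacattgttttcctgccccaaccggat
Ptgs1, first probe: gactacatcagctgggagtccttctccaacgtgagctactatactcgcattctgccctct
Ptgs2: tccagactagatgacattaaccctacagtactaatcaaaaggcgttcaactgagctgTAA
Ptges2: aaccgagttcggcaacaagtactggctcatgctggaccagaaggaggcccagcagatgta
Ptger3, first probe: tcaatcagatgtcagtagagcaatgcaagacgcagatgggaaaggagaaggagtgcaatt

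Ptgds (NM_013015), which makes prostaglandin D2 and is secreted into cerebrospinal fluid as a carrier of small lipophilic molecules, had an intensity of 141437 in the female pool, against 73961.7 in the male pool. The local background was 47 in females and 48 in males. Both readings thus stood far above background, and the female pool was higher before any scaling although its array was dimmer as a whole. The levels were 5.59 in the female pool, against 4.29 in the male pool, a difference of 1.29 with a technical SD of 0.052. Of all 20655 measured genes, 59 (0.286%) were at least as far higher in the female pool. Of the 690 genes within 1 log2 of its mean level, Ptgds was the 1 with such a difference, and 5 (0.725%) were at least 1.5-fold apart in either direction. Measured values of this contrast chose the list, so nothing is read from the place of Ptgds in these counts. In bulk RNA, more cells of a type and more RNA per cell cannot be told apart.

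The Ptgds value rests on 1 spot in slide row 299, outside the bands. In the block of rows 280 to 299 that holds it, 0 of 468 repeated spots departed from the others of their probe. The 24 spots nearest to it on the slide differed by -1.38 to 0.56 between the pools, with a median of -0.023, and 1 of them was at least 1.5-fold apart. These values describe its surroundings on the slide only, and a fault of the 1 Ptgds spot itself was not tested. On the chromosome, the 20 measured genes nearest to Ptgds had differences of -0.95 to 0.17 and a median of -0.088, with 1 at least 1.5-fold apart. Of the listed genes 4 lie on chromosome 3, namely Ptgds, Ptges, Ptges2 and Ptgs1, and the 206 measured genes over the 11.7 Mb that hold them had differences of -0.58 to 2.73 and a median of -0.028, with 5 at least 1.5-fold apart, Ptgds among them. Of these Tsc1 (band) at 2.73 and Prrx2 at 1.47 were further apart than Ptgds, both higher in the female pool. These comparisons were chosen after the data were seen.

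**Figure D2:**
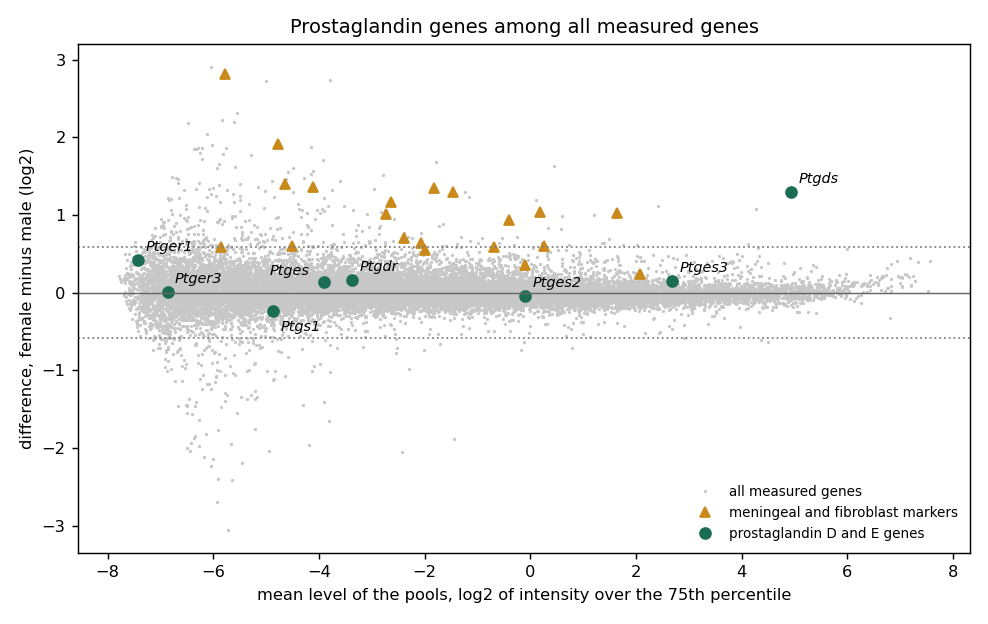
Difference between the pools, female minus male on the log2 scale, against the mean level of both pools for each of the 20655 measured genes (grey), the listed prostaglandin genes (green circles) and 20 markers of meninges and fibroblasts (orange triangles); dotted lines mark 1.5-fold. Ptgds lies at 1.29, the highest of the 690 genes within 1 log2 of its level, while the spread of all genes widens toward dim signals on the left. Measured values of this contrast chose the list, so nothing is read from that place.

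Ptgs1 encodes the cyclooxygenase that many tissues make without a stimulus, in the brain mainly in microglia. The second of its 2 probes (chr3:15365115-15365174, plus strand) was printed on 10 spots. Its intensity was 387.7 at the lowest, 420.6 at the median and 453.3 at the highest spot in the female pool, against 555.2, 567.9 and 614.4 in the male pool. After scaling to the arrays this gap nearly closed. The level averaged -2.80 ± 0.070 in females and -2.72 ± 0.047 in males (SD, 10 spots of 1 array each), and the female value was lower at 10 of 10 spots, by 0.022 to 0.17. The mean difference was -0.085 ± 0.046 (SD, 10 spots). Spots are repeats of 1 hybridisation and not of the animals, so this SD says how well the array was read and no more.

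The first Ptgs1 probe, on 1 spot (band), read 20.4 in the female pool, against 34.4 in the male pool, both close to the lowest intensity well above background. Its levels were -7.17 in females and -6.78 in males, a difference of -0.40 with a technical SD of 0.25. The 2 probes thus lay on the same side of 0 but gave differences of unlike size. Their mean, the gene value, was -0.24. The technical SD of 1 spot at the mean level of the 2 probes was 0.14, which is not the error of this mean. The gene value was -0.10 without the bands and 0.011 with a different background correction (normexp), so neither its size nor its direction was stable.

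**Figure D3:**
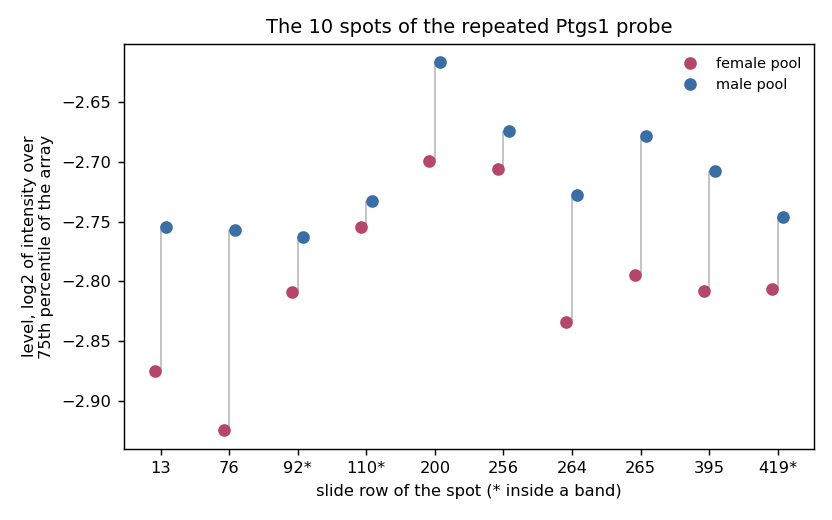
Level of the repeated Ptgs1 probe at each of its 10 spots in the female pool (red, left) and in the male pool (blue, right), ordered by slide row, with rows inside a band starred. The female value is the lower at each of the 10 spots, with gaps of 0.022 to 0.17 log2.

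Ptgs2 encodes the inducible cyclooxygenase, which neurons and, in fever, vascular cells of the brain make. Its 1 spot (band) had an intensity of 10.5 in the female pool, not well above background, and of 19.0 in the male pool, which was. The levels were -8.13 in the female pool, against -7.63 in the male pool. The male level was 1.07-fold above -7.72, the lowest level on the female array that passed the background flag. That level is no ceiling for spots that failed the flag, so this is no firm bound. On the male array a Ptgdr spot at -7.58 failed it. The direction for Ptgs2 is therefore not settled. The technical SD at the dim end of the array was 0.25, and the measured difference, with a female reading that failed the flag, was -0.50.

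The prostaglandin E synthases were close in both pools. Ptges, the inducible membrane-bound synthase that is often paired with Ptgs2, had intensities of 204.5 in females and 239.1 in males. Its levels were -3.85 in the female pool, against -3.98 in the male pool, a 1.10-fold higher female level, the difference being 0.13 with a technical SD of 0.10. Ptges2, a second membrane-associated synthase, read 2705 in females and 3566 in males. Its levels were -0.12 in the female pool, against -0.080 in the male pool, and the difference of -0.042 was smaller than its technical SD of 0.058. Ptges3, the cytosolic synthase also known as the Hsp90 co-chaperone p23, read 19860 in females and 22994 in males, on a spot in row 399, just outside a band. Its levels were 2.75 in the female pool, against 2.61 in the male pool, a difference of 0.15 (1.11-fold) with a technical SD of 0.057. The files list a transcript of the related gene Ptges3l1 for the same probe, so signal from that copy cannot be told apart. None of the 3 approached 1.5-fold. With spike-in scaling the difference of Ptges3 was 0.064, about its technical SD.

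Ptgdr, the receptor through which prostaglandin D2 raises cyclic AMP, was measured by 1 of its 3 probes (chr15:19345867-19345926, plus strand). That probe read 300.1 in females and 344.7 in males, with levels of -3.29 in the female pool, against -3.45 in the male pool. The difference was 0.16 (1.11-fold) with a technical SD of 0.096. By this 1 spot the receptor was close in both pools, while the synthase of its ligand was not, and nothing is read from that contrast. With all 3 probes and no filter on dim probes, the Ptgdr difference was -0.63. Both other probes (band) were not well above background in either pool, at 3.41 and 3.57 in the female pool and 19.7 and 4.15 in the male pool. The brighter of these male readings came from the probe that the files also assign to Ptgdrl1.

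The 3 listed prostaglandin E2 receptors were read near or below the limit of the arrays, where the lowest intensity well above background was 13.9 in females and 15.0 in males. Ptger1 (EP1), which raises intracellular calcium, read 19.8 in the female pool, against 19.0 in the male pool (chr19:26160729-26160788, minus strand). Its levels were -7.22 in females and -7.63 in males, a difference of 0.42 (1.33-fold) beside a technical SD of 0.25. The unscaled readings were thus nearly equal, and the difference in level arises mainly in the scaling of the arrays. The same scaling sets the sign for Ptges, Ptges3, Ptgdr and the first Ptger3 probe. Their unscaled readings were lower in the female pool.

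Ptger3 (EP3), which couples mainly to inhibitory G proteins and has splice variants that differ in the C-terminal tail, had 2 probes that fell on opposite sides of 0. The first probe, for which the files list 2 transcripts, read 31.3 in the female pool, against 35.1 in the male pool, with levels of -6.56 in females and -6.75 in males, a difference of 0.19. The second probe (band; chr2:255759143-255759202, plus strand), for which they list 1 transcript, read 20.5 in the female pool, against 29.7 in the male pool, with levels of -7.16 in females and -6.99 in males, a difference of -0.18. Each of these differences was below the technical SD of 0.25, and their mean was 0.0071. The gap between the 2 probes was not tested. Ptger4 (EP4), which raises cyclic AMP, did not pass the background flag in either pool, at 4.17 in the female pool, against 4.74 in the male pool (chr2:54423296-54423355, minus strand), and no fold is given.

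**Figure D4:**
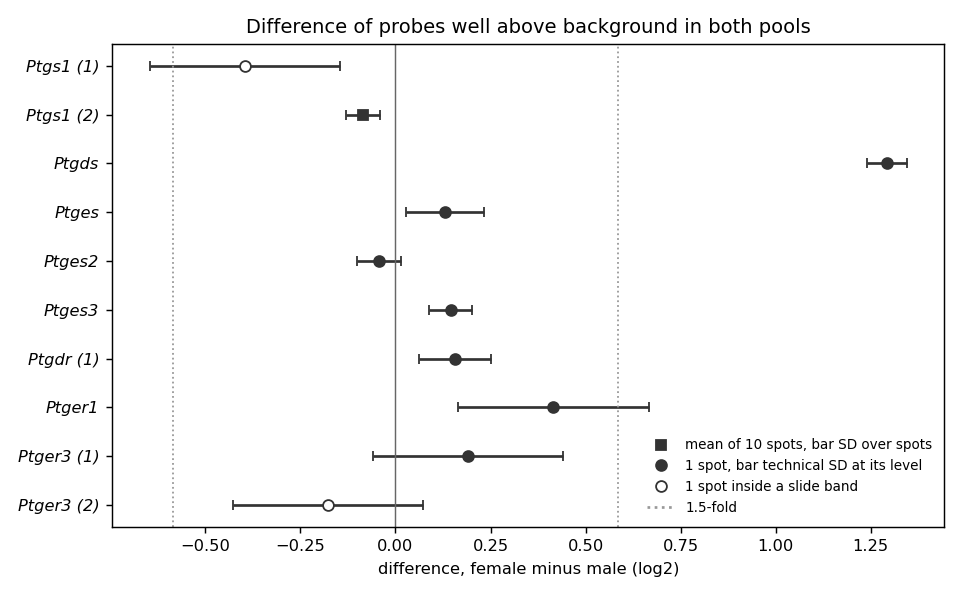
Difference between the pools, female minus male on the log2 scale, of the 10 probes well above background in both, with bars for the technical SD of 1 spot or, for the repeated Ptgs1 probe, the SD over its 10 spots. Dotted lines mark 1.5-fold and open circles are single spots inside a slide band. Ptgds lies at 1.29, all other probes between -0.40 and 0.42.

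Beyond the listed genes, 51 other genes of prostanoid and lipoxygenase metabolism were on the arrays, of which 41 were measured. In the female pool 19 of them were higher and 22 lower, the median was -0.010, and 2 were at least 1.5-fold apart, both higher in the female pool. Of all measured genes, 2.39% were that far apart, and nothing is read from the pathway count. Of the enzymes that release arachidonic acid or handle its precursors, 15 of 17 were measured, 5 higher and 10 lower in females, and 0 reached 1.5-fold, with a median of -0.045. The widest gap among them was that of the secreted phospholipase Pla2g2a, at -6.91 in females and -7.22 in males, a difference of 0.31 beside a technical SD of 0.25. Pla2g4c and Pla2g10 were not well above background in either pool.

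Both genes past 1.5-fold were other terminal synthases, of which 6 of 7 were measured, 4 higher and 2 lower, with a median of 0.058. Gstm2 (band), a glutathione transferase listed because prostaglandin E synthase activity is known for the human enzyme, was at -2.48 in the female pool, against -3.24 in the male pool, 1.69-fold higher in the female pool. Ptgis, the prostacyclin synthase of vessel walls, was at -4.77 in females and -5.37 in males, a difference of 0.60 (1.52-fold) with a technical SD of 0.16. It lay just past 1.5-fold and fell under it with 5 of the 12 alternative ways of processing. Hpgds, the haematopoietic prostaglandin D synthase and the other enzyme that makes prostaglandin D2, did not pass the background flag in either pool.

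Of the other prostanoid receptors 4 of 5 were measured, with 2 on each side of 0, a median of 0.0039 and 0 at 1.5-fold. Ptger2 (band; EP2), the remaining prostaglandin E2 receptor, was at -4.14 in females and -4.13 in males, well clear of the limit of the arrays. The widest apart was Ptgdr2 (band), the second receptor of prostaglandin D2, at -6.49 in the female pool, against -6.25 in the male pool. That difference, -0.24, was below its technical SD of 0.25. Of the breakdown and transport list, which holds enzymes and transporters that clear prostaglandins and Ptgfrn, a membrane protein that regulates the prostaglandin F receptor, 7 of 8 were measured, 4 higher and 3 lower, with a median of 0.00054 and 0 at 1.5-fold. Hpgd (band), which inactivates prostaglandin E2 by oxidation, was at -4.53 in females and -4.24 in males, a difference of -0.28 with a technical SD of 0.12.

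The lipoxygenase branch, which makes leukotrienes and hydroxy fatty acids from the same precursor, had 9 of 14 genes measured, 4 higher and 5 lower, with a median of -0.0078 and 0 at 1.5-fold. Its widest gaps lay below 0. Alox15 was at -5.39 in the female pool, against -4.96 in the male pool, a difference of -0.43 with a technical SD of 0.16. Alox12 and Alox12e, read near the limit of the arrays, had differences of -0.35 and -0.27 beside a technical SD of 0.25. The leukotriene receptors Cysltr1, Cysltr2, Ltb4r and Ltb4r2 were not well above background in either pool.

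Because Ptgds is known from meninges, choroid plexus and oligodendrocytes, markers of these and of 5 other cell classes were read beside it. Of 20 markers of meninges and fibroblasts, 20 were measured and 20 were higher in the female pool. The gap reached 1.5-fold for 16 and 2-fold for 10 of these, beside 2.39% and 0.847% of all measured genes. These shares also stand beside the counts of the cell classes below. The differences of the 20 markers ran from 0.24 for Gjb6, a connexin that astrocytes also make, to 2.82 for Cdh1, a cadherin of the arachnoid. Their median was 0.97. Cdh1 itself was at -4.36 in females and -7.18 in males. The summed signal of the 20 gene values, with the 75th percentile set to 100, was 1768 in the female pool, against 1101 in the male pool, and 0 of them were below background in either pool. The 2 brightest genes weigh most in this sum. Gjb6 was at 2.19 in females and 1.95 in males. Igf2 (band), read from 1 spot, was at 2.16 in females and 1.13 in males. Without the slide bands the median was 0.94. This list was known to move in these data before it was set beside Ptgds, and its part in the Ptgds difference was not tested.

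Markers of the other known sources of Ptgds had medians nearer 0, with exceptions in the choroid plexus. Of 14 choroid plexus markers 13 were measured, 9 higher and 4 lower in the female pool, 2 of them at least 1.5-fold higher, with a median of 0.15. The potassium channel gene Kcnj13 (band) was at -4.72 in females and -6.94 in males. Ttr (band), the transthyretin gene and a bright marker of this tissue, was at 1.09 in females and 0.11 in males, a difference of 0.98 (1.98-fold), and was named after its value was seen. Slc4a5 had the lowest difference, -0.17. The summed signal of this list was 648 in the female pool, against 549 in the male pool. That gap rests on the 1 spot of Ttr. Enpp2 (band), the brightest gene of the list, was at 1.85 in females and 1.90 in males. Of 16 markers of myelin and oligodendrocytes 5 were higher and 11 lower, 0 reached 1.5-fold and the median was -0.050, with differences of -0.21 for Cldn11 to 0.10 for Mbp. The summed signal of these gene values was 8584 in females and 8963 in males. Summed over probes in place of genes it was 37004 in females and 33781 in males, the opposite direction. The part of either list in the Ptgds difference was not tested.

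The remaining classes, which are not known as main sources of Ptgds, stood near 0 apart from blood. Microglia and macrophages had 9 markers higher and 6 lower of 15 measured, a median of 0.034 and 1 at 1.5-fold, with Itgam at -0.32 and Cd68 at 0.59. Their summed signal was 2477 in the female pool, against 2415 in the male pool. Endothelium and mural cells had 9 higher and 10 lower of 19, a median of -0.030 and 0 at 1.5-fold, with Tie1 (band) at -0.27 and Abcc9 (band) at 0.50, and a summed signal of 1296 in females and 1292 in males. Astrocytes had 5 higher and 5 lower of 10, a median of 0.0020 and 0 at 1.5-fold, with Gfap at -0.24 and Sox9 at 0.29, and a summed signal of 7145 in females and 7266 in males (over probes 23672 in females and 23270 in males, the opposite direction). Neurons had 8 higher and 3 lower of 11, a median of 0.032 and 0 at 1.5-fold, with Nefm at -0.12 and Gad2 at 0.30, and a summed signal of 8020 in females and 7891 in males. All 7 markers of blood cells lay below 0, with a median of -0.46, and S100a8 (band), at -1.27, was the 1 past 1.5-fold. The summed signal of the blood markers was 4571 in females and 5511 in males. The part of any of these classes in the Ptgds difference was not tested.

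**Figure D5:**
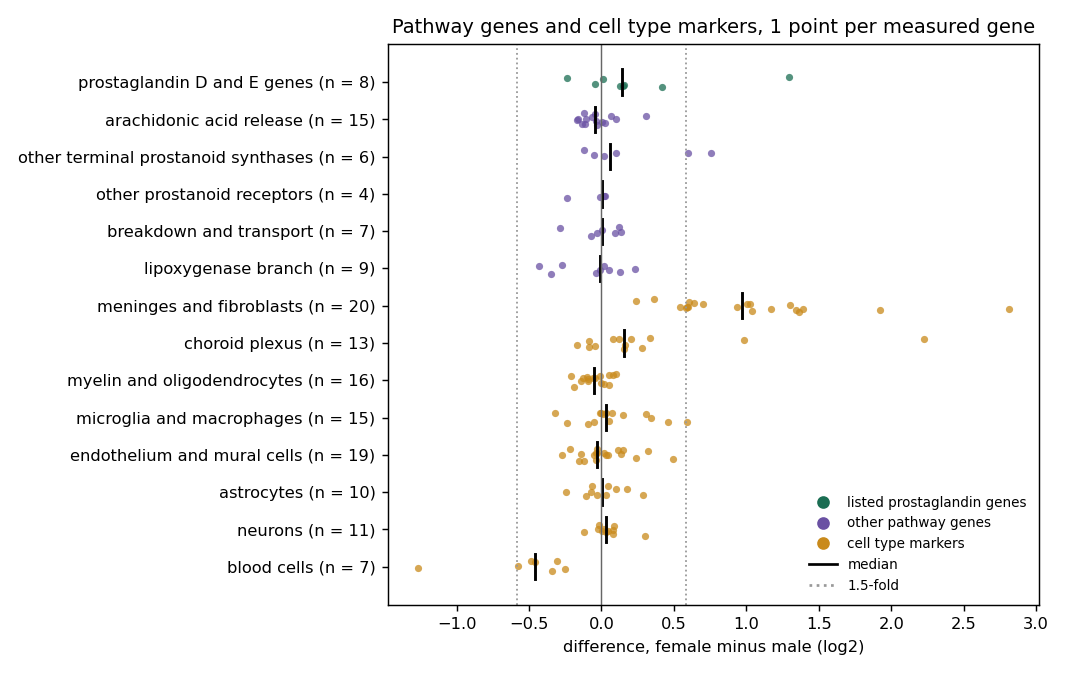
Difference between the pools, female minus male on the log2 scale, for each measured gene of the listed prostaglandin genes (green), the other pathway groups (purple) and the cell class markers (orange), with black bars at each median and dotted lines at 1.5-fold. The 20 markers of meninges and fibroblasts all lie above 0 around a median of 0.97, blood markers below 0 around -0.46, and the medians of the other groups between -0.050 and 0.15.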

How the data were processed

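Per the file headers, the deposited scanner files hold, for every spot, an intensity after background subtraction and detrending by Agilent Feature Extraction 10.7.3.1, with probes placed on build rn4. The submitters' processing notes name version 9.1, and which of them made the values is not settled. The deposited value table held the same intensity on a linear scale as 100 times its ratio to the array's 75th percentile, without centring, with medians of 29.5 in females and 29.0 in males. Other deposited values, the flags for spots above background, outliers and saturation, were used as given.

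From these intensities, levels were log2 minus log2 of the 75th percentile over non-control spots. The 487 spots flagged on either array were left out and the remaining spots of each probe were averaged. A probe counted as measured when more than 50% of its spots passed the background flag in both pools, and a gene took the mean of such probes. The technical SD is that of the 100 repeated probes of nearest level, among 1312. Bands were rows 80 to 179, 400 to 459 and 520 to 532. The technical SD can understate the error inside them. Of the probes, 18758 were named by accession and 2252 by symbol in the GRCr8 gene table, of which only names were used, and 9357 kept the name in the files. Probe sequences are those of the deposited files. The exon or UTR that holds each probe was not analysed here.

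The listed genes, pathway groups and marker lists were chosen with earlier results of these data known. Named were all 10 listed genes, pathway genes at least 1.2-fold apart, the widest apart of each pathway group, and the widest of each marker list in each direction; genes named as not measured were added afterwards. With 1 array per pool no test was run. The calculation was tested on simulated spots with known differences and the same noise at every level. They had the same background flags in both pools and no bands or outlier flags. That run therefore tests the arithmetic and not the error of dim or single-spot readings. Alternatives were 12 settings: normexp background correction (limma 3.58.1 in R 4.3.3, offset 50, leaving out 3 male spots and 0 female spots of extreme local background, a step chosen after the data were seen), quantile, median, spike-in and well-above-background scaling, no multiplicative detrending, flagged spots kept, no filter on dim probes, the brightest probe, the median over spots, leaving out the bands, and the deposited value table. Other calculations used Python 3.11.15, numpy 2.4.6 and pandas 2.3.3.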

Additional observations from a re-analysis of the deposited data

How the results depend on the processing

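With 1 array per pool, no array could be left out. No paired analysis was possible because each pool is 1 array and no result comes from a test. The Ptgds difference was 1.21 (spike-in scaling) to 1.30 over the 12 alternatives and past 2-fold in each. Ptges, Ptges3 and Ptger1 stayed above 0 and Ptges2 below it in all 12, Ptgdr was above 0 in 11, Ptger3 in 9 and Ptgs1 in 1. Ptgds, Ptges, Ptges2, Ptges3 and Ptger1 each rest on 1 unflagged spot outside the bands. For them, keeping flagged spots, no dim filter, the brightest probe, the median over spots and leaving out the bands could change nothing. The deposited value table held the same intensity. Only the other settings could move these values, and they reuse the same reading. Spike-in scaling moved the median of all genes to -0.081 and gave -0.12 for Ptges2 and 0.064 for Ptges3. Without the filter on dim probes, 2 of 10 listed genes were at least 1.5-fold apart in place of 1 of 8, the second being Ptgdr at -0.63. Of the pathway genes, 5 of 51 were, in place of 2 of 41, with Cysltr1, Ptgfr and Slco2a1 added. These counts stand beside 2075 of 26320 genes in that setting, so nothing is read from them. The pathway count was 1 with normexp, quantile, median or spike-in scaling or no multiplicative detrending, each of which put Ptgis under 1.5-fold, and 1 without the bands, which hold the Gstm2 spot. With normexp, the lipoxygenase median was 0.11 and the blood median -0.30, and the cause was not tested. Of all genes, 494 of 20655 were at least 1.5-fold apart, against 211 of 20655 with normexp, 2075 of 26320 with no filter and 191 of 14869 without the bands. At 2-fold these counts were 175, against 48, 1004 and 36. Dim signals limit Ptgs2, Ptger1, Ptger3 and Ptger4, whose levels lie near or below the lowest that was well above background.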
